A study of Mus musculus with 7 samples.

Results

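The genes described are 8 that write, copy, erase or read DNA methylation: the methyltransferases Dnmt1, Dnmt3a and Dnmt3b, the maintenance factor Uhrf1, the dioxygenases Tet1, Tet2 and Tet3, and the reader Mbd2. They were chosen by gene name, as every probe other than controls whose deposited gene name was one of these symbols, which gave 18 of the 55681 probes and 8 of the 36406 names on the array. All 18 probes were well above background, as the scanner software scores it, on all 7 arrays, and no spot was saturated.

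DNA methyltransferases place a methyl group on the cytosine of CpG dinucleotides. Dnmt3a and Dnmt3b set new marks, and Dnmt1 copies existing marks onto the new strand behind the replication fork, where Uhrf1 binds the hemimethylated CpG and recruits it. The TET enzymes oxidise 5-methylcytosine, which opens the way to its removal by base excision or by loss through cell division. Satellite cells, which regenerate skeletal muscle, rarely divide at rest, and Uhrf1 and Dnmt1 are genes that dividing cells express more.

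RNA was measured in satellite cells of young and geriatric mice in resting muscle, all male C57BL/6. Young mice were 2, 2 and 3 months old (n = 3 arrays), and geriatric mice 28, 28, 29 and 30 months old (n = 4 arrays). Flow cytometry kept cells with integrin α7 and CD34 and removed those with Sca1, CD11b, CD45 or CD31. The RNA was amplified and labelled with Cy3. The labels do not tell pools from single animals, so the tests cover only the spread among these samples.

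Geriatric replicates 1 and 2 carry the same sample name in their labels. Their log2 levels correlated at r = 0.992 over probes, and 95.1% of probes agreed within 2 combined scanner errors, against 49.1% to 58.5% for the other array pairs. They were averaged and counted as 1 sample, so each comparison is of 3 young with 3 geriatric samples. All 7 arrays were on 1 slide. The 3 young arrays and geriatric replicate 1 were in its row 1 and the other geriatric arrays in row 2, so most of the age contrast runs between rows. All 12 satellite cell markers were well above background on every array, among them Pax7, the transcription factor that defines these cells (mean level 4.09 young, 4.13 geriatric). Itga7, the gene of the sort antigen integrin α7, was lower in every geriatric sample (2.02 young, 1.58 geriatric, adjusted p = 0.703 in limma). It was the 1 of 12 markers whose groups did not overlap, against 5.65% of all features in that direction.

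Levels are log2 signals relative to the 75th percentile of each array. A level of 0 is that percentile, and differences are geriatric minus young. Levels of different probes are not comparable, because probes differ in how well they bind. In bulk RNA, fewer cells of a type and less RNA per cell cannot be told apart. Over all 27395 features tested, 7 passed an adjusted p of 0.05 (0.0256%), with a median difference of -0.0024 and 50.3% of features lower in geriatric samples.

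None of the 8 genes passed. None of their 18 probes did either, against 0.0145% of all probes. Of the 8, 7 had a lower mean in geriatric samples, with a median difference of -0.21, and of the 18 probes 13 did, with a median of -0.20. Under quantile normalization Tet1 and Mbd2 lay on the other side of 0 (0.033 and 0.020). Uhrf1 had the largest difference of the 8 (-1.74) and Dnmt1 the next (-0.68). They were also the members for which all 3 geriatric samples were below all 3 young ones. That is 2 of 8 genes, where 5.65% of all features were separated in that direction. No member was separated the other way, against 7.18% of features. Probe by probe, 3 of 18 were separated with geriatric lower, against 5.86% of all probes, and 0 of 18 with geriatric higher, against 6.93%. The unadjusted p was under 0.05 for these same 2 of 8 genes, against 7.23% of features. In limma, leaving out any sample in turn left 0 of the 8 passing.

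**Figure D1:**
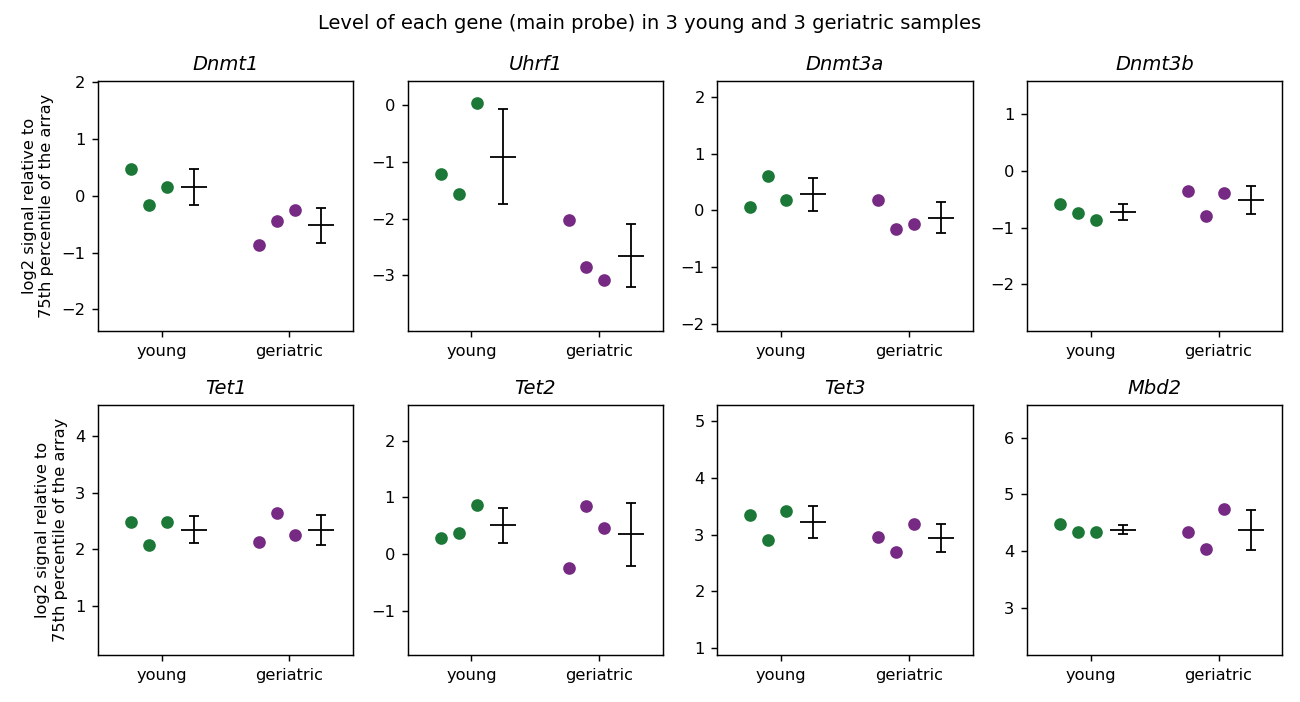
Level of the brightest probe of each of the 8 genes in each sample, as log2 signal relative to the array's 75th percentile. Points are samples (3 young, 3 geriatric, with geriatric replicates 1 and 2 averaged), and bars are the group mean and SD. The geriatric points lie wholly below the young points for Dnmt1 and Uhrf1 and overlap them for the other 6 genes.

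Uhrf1, the factor that brings Dnmt1 to hemimethylated DNA, was represented by 2 probes at different places in the transcript. In build mm9, one lies at base 3430 of NM_010931, on chr17:56462770-56462829, plus strand. The other lies at base 985 of NM_001111079, and its 60 bases map across chr17:56451668-56452321, a span of 654 bases, so the probe crosses an exon junction. The junction probe is shown because it reads spliced RNA, with its CpG dinucleotides in capitals.
Uhrf1 probe at base 985: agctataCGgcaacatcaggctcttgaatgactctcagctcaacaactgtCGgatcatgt

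At the probe at base 3430, the Uhrf1 level was -1.21, -1.56 and 0.038 in young samples 1, 2 and 3. It was -2.02 in the averaged geriatric sample, -2.84 in geriatric sample 3 and -3.08 in geriatric sample 4. The highest geriatric sample was therefore below the lowest young sample, and young sample 3 stood above the other young samples. In processed spot intensity, before scaling between arrays, the same probe read 624, 518 and 1653 in the young arrays. It read 373, 366, 221 and 157 in the 4 geriatric arrays.

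The Uhrf1 mean was -0.91 ± 0.84 (SD, n = 3) in young and -2.65 ± 0.56 (SD, n = 3) in geriatric samples. The difference of -1.74 (SE 0.50, 95% interval -2.97 to -0.50) is a level 3.34-fold lower in geriatric samples. In limma its unadjusted p was 0.0139, rank 739 of 27395, and its adjusted p was 0.514, so it did not pass. The difference was -1.26 without young sample 3. It was -1.38 with normexp background correction and -1.45 with the authors' values. Within slide row 1, which holds the 3 young arrays and geriatric replicate 1, it was -1.17 (SE 0.74).

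The junction probe of Uhrf1 reads another part of the transcript. Its level was -1.12, -2.60 and -1.09 in young samples and -3.04, -3.84 and -3.17 in geriatric samples. As at base 3430, young sample 2 was nearest the geriatric samples, and the groups again did not overlap. The difference was -1.75 (SE 0.48), or 3.36-fold lower, with an adjusted p of 0.505 in limma over all 41257 probes. It was -1.37 with normexp background correction and -1.44 with the authors' values. The 2 probes read the same RNA of the same samples and are not independent replicates.

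Dnmt1, the maintenance methyltransferase, had 1 probe, at base 4984 of NM_010066. In mm9 its 60 bases map across chr9:20711973-20712341, minus strand, a span of 369 bases, so this probe also crosses an exon junction. It is shown for the same reason, with CpG in capitals.
Dnmt1 probe at base 4984: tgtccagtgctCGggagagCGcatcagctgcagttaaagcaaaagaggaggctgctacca

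The Dnmt1 level was 0.47, -0.16 and 0.16 in the young samples. It was -0.87, -0.44 and -0.26 in the averaged geriatric sample and geriatric samples 3 and 4. The gap between the groups was narrow, from -0.16 in young sample 2 to -0.26 in geriatric sample 4. The averaged geriatric sample was farthest from the young samples.

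The Dnmt1 mean was 0.16 ± 0.32 (SD, n = 3) in young and -0.52 ± 0.32 (SD, n = 3) in geriatric samples. The difference was -0.68 (SE 0.26, 95% interval -1.31 to -0.051), a fold of 1.6 with geriatric lower. In limma its unadjusted p was 0.0384 and its adjusted p 0.651. It ranged from -0.84 to -0.51 when single samples were left out. Within slide row 1 it was -1.05 (SE 0.35). Uhrf1 and Dnmt1 did not share an order of samples: the lowest Dnmt1 level was in the averaged geriatric sample, and the lowest Uhrf1 levels were in geriatric samples 3 and 4.

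Genes of S phase give a measure of dividing cells beside Uhrf1 and Dnmt1. Of 25 tested genes of DNA replication and proliferation, 16 were lower and 9 higher in geriatric samples and none passed. Their median difference was -0.26, against -0.0024 over all features. Of the 25, 23 were well above background in both groups. Of these 23, 14 were lower, with a median of -0.22 over the 23. For 3 of the 23 the groups did not overlap with geriatric lower, against 5.65% of features. They were Mcm2 (-0.73), a subunit of the replicative helicase, Mki67 (-1.05), a marker of cycling cells, and E2f2 (-0.65), an E2F transcription factor. The other two, Mcm10 and Cdc6, which help to assemble replication origins, reached that mark on 3 of 3 young arrays but on 0 of 4 geriatric ones. They entered the test only through the young samples, and so are not counted as separated. With the dim group set at the lowest signal well above background, Mcm10 was at least 2.01-fold lower and Cdc6 at least 1.67-fold. These bounds carry no p-value. Both genes remain in the counts and the median of the 25. Mcm4, another helicase subunit, differed by 0.47 (SE 0.21).

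The S phase genes and Uhrf1 did not move alike in every sample. Mcm10 and Cdc6 are included in the values by sample. Measured from each gene's mean over the 6 samples, the median S phase gene stood at 0.042, 0.0089 and 0.44 in young samples 1, 2 and 3. It stood at 0.052 in the averaged geriatric sample, -0.36 in geriatric sample 3 and -0.19 in geriatric sample 4. Young sample 3, which was highest for Uhrf1 at base 3430, was highest here too. The averaged geriatric sample was level with young samples 1 and 2 on these genes while its Uhrf1 and Dnmt1 levels were below theirs. The summed signal of the list, in units of the 75th percentile, was 21.9 to 29.4 in young and 22.3 to 26.7 in geriatric samples. The part of cell division in the Uhrf1 and Dnmt1 differences was not tested.

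**Figure D2:**
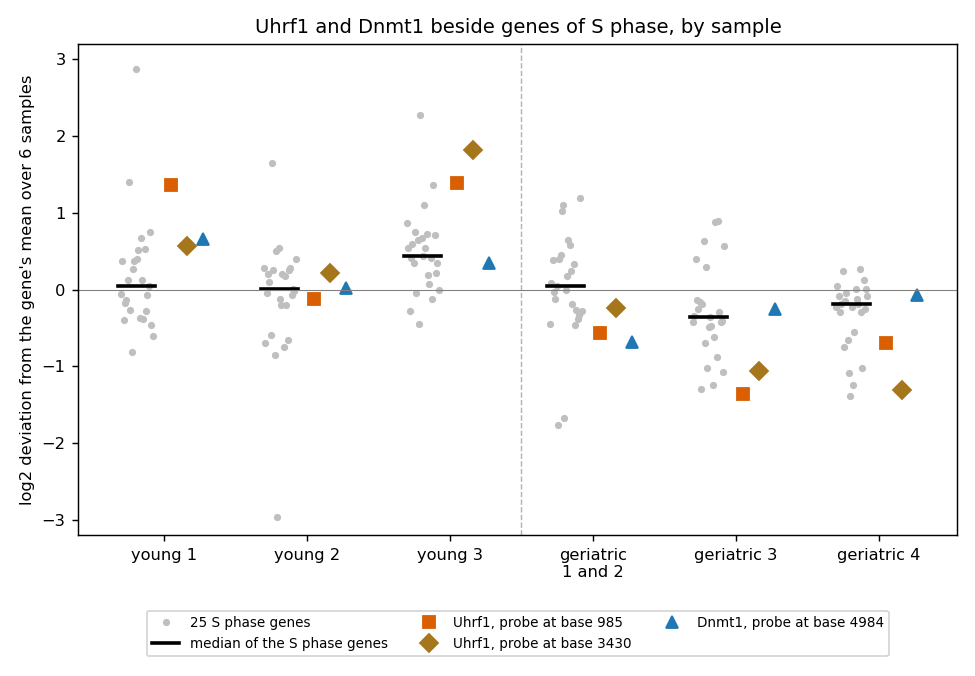
Log2 deviation from each gene's own mean over the 6 samples, for 25 S phase genes (grey points, black bar their median) and for Dnmt1 and both Uhrf1 probes. Uhrf1 stands high in young samples 1 and 3 and low in geriatric samples 3 and 4, while the S phase median is 0.44 in young sample 3 and -0.36 in geriatric sample 3.

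Promoter sequence is given for these 2 genes because they were the separated pair and E2F factors are known regulators of S phase genes. RefSeq promoters (250 bases before to 50 after a start site, GRCm38.p6) were matched by symbol for 7 of the 8 genes, with 12 start sites. They were searched on both strands for 4 forms of the E2F motif, TTTCCCGC, TTTCGCGC, TTTGCCGC and TTTGGCGC. A motif was found in 2 of the 12, one of the 3 Dnmt1 start sites and one of the 2 Uhrf1 start sites, against 2.26% of all 32851 promoters. The Dnmt1 promoter held 2 matches, at -219 to -212 on the opposite strand and at 34 to 41, and 0.0974% of promoters held 2 or more. The Uhrf1 match was at -185 to -178. These 2 promoters each had 33 CpG, against a median of 7 over all promoters. All 4 forms of the motif contain a CpG, and the share with a match among promoters as rich in CpG was not counted. The shares over all promoters are therefore not a like background for these 2. Members without a match were CpG-rich too, with 57 at Tet2, 46 and 47 at 2 Dnmt3a start sites and 30 at Dnmt3b. The 60 bases around a match are printed with the match in capitals.
Dnmt1, chr9:20952809-20952868, minus strand: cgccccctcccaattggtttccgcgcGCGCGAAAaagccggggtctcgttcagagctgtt
Uhrf1, chr17:56304102-56304161, plus strand: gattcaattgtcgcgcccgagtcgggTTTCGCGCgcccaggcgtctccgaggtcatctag
A match is a description of these letters and not evidence of binding.

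Transcripts of proteins that work with Uhrf1 and Dnmt1 mostly had lower means in geriatric samples. Of 16 tested cofactors of maintenance and de novo methylation, 15 were lower and 1 higher, none passed, and the differences ran from -2.90 to 0.025 with a median of -0.18. Of the 16, 1 had groups that did not overlap with geriatric lower, near the 5.65% of all features: Suv39h1, an H3K9 methyltransferase (-0.74, SE 0.28). The lower gene with the smallest unadjusted p was Cdca7l (-2.90, SE 1.08, adjusted p = 0.649 in limma). It was well above background on 3 of 3 young arrays and on 1 of 4 geriatric arrays, so its geriatric level is mostly a bound. The one higher gene was Zfp57 (0.025, SE 0.16), which guards methylation at imprinted loci. Hells, the chromatin remodeller of methylated repeats, was well above background on only 3 of 7 arrays and differed by -0.55 (SE 1.88). Uhrf2, the paralog of Uhrf1, differed by -0.080 (SE 0.22), and Pcna, the sliding clamp that tethers Dnmt1, by -0.050 (SE 0.28).

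Dnmt3a, a de novo methyltransferase, had 1 probe, at base 9611 of NM_007872 (chr12:3914320-3914379, mm9, plus strand). Its level was 0.060, 0.61 and 0.17 in young samples and 0.18, -0.33 and -0.24 in geriatric samples. The averaged geriatric sample lay among the young samples, so the groups overlapped. The difference was -0.41 (SE 0.24, 95% interval -0.998 to 0.17, adjusted p = 0.781 in limma). It was -0.25 without young sample 2, and -0.16 (SE 0.33) within slide row 1.

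Dnmt3b, the other de novo enzyme, had 3 probes on NM_001003961, and they did not point the same way. At base 4255 (chr2:153513403-153513462, mm9, plus strand), the brightest probe and the nearest the 3' end, the level was -0.58, -0.74 and -0.87 in young and -0.36, -0.79 and -0.39 in geriatric samples, a difference of 0.22 (SE 0.19, adjusted p = 0.873 in limma). At base 2950 (chr2:153512098-153512157) it was -0.75, -1.52 and -1.34 in young and -1.31, -2.85 and -2.42 in geriatric samples. That difference was -0.99 (SE 0.45, adjusted p = 0.717 over all probes). At base 3843 it was -0.38 (SE 0.25).

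The Dnmt3b probes differed from each other by 1.21 between bases 2950 and 4255 (exact two-sided permutation p = 0.1). This is the smallest p that 3 against 3 samples allow, and it is 0.7 after adjustment over the 14 probe pairs of the members. The mean of the 3 probes gave -0.38. The direction for Dnmt3b therefore depended on which probe was read.

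**Figure D3:**
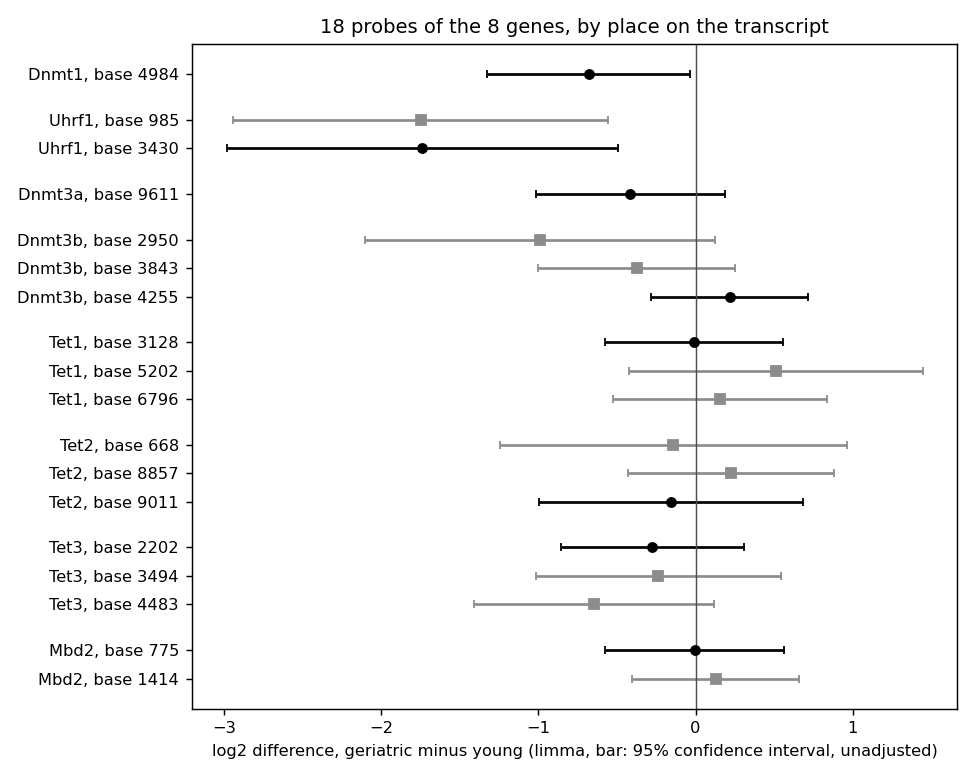
Log2 difference, geriatric minus young, with its 95% interval for each of the 18 probes, labelled by gene and by the first base of the probe in its transcript. Both Uhrf1 probes lie near -1.74, the 3 Dnmt3b probes run from -0.99 to 0.22, and the intervals of 15 probes include 0.

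The TET enzymes overlapped between the groups at all 9 of their probes. Tet1, at its brightest probe (base 3128 of NM_027384, chr10:62301856-62301915), was at 2.49, 2.08 and 2.49 in young and 2.13, 2.65 and 2.25 in geriatric samples. The difference was -0.0070 (SE 0.22, 95% interval -0.55 to 0.54). Its other probes gave 0.51 (SE 0.38) and 0.16 (SE 0.28). The sign of the first was positive without the averaged geriatric sample (0.098), so it has no set direction.

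Tet2, often mutated in the blood of ageing people, was at 0.28, 0.38 and 0.86 in young and -0.25, 0.85 and 0.46 in geriatric samples (base 9011 of NM_001040400, chr3:133126751-133126810). The averaged geriatric sample was the lowest and geriatric sample 3 nearly the highest, so the spread within geriatric samples exceeded the difference of -0.15 (SE 0.33). Without the averaged geriatric sample it was 0.15, without young sample 3 it was 0.023, and within slide row 1 it was -0.68 (SE 0.35). The other Tet2 probes gave 0.23 (SE 0.26) and -0.14 (SE 0.45).

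Tet3 was lower at all 3 of its probes, none beyond the spread between samples. The brightest (base 2202 of NM_183138, chr6:83352743-83352802) read 3.34, 2.90 and 3.42 in young and 2.96, 2.69 and 3.19 in geriatric samples, a difference of -0.27 (SE 0.23, adjusted p = 0.859 in limma). The probe at base 4483 gave -0.65 (SE 0.31, adjusted p = 0.736 over all probes). The probe at base 3494 gave -0.24 (SE 0.32).

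Regulators of TET activity and enzymes that make 2-oxoglutarate, the TET cosubstrate, or act near it in metabolism were lower in 13 of 17 cases. Their median difference was -0.21. Not all of these enzymes make 2-oxoglutarate, so the counts do not measure its supply. None passed. The groups did not overlap for 3 of the 17, each lower, against 5.65% of features: Fh1, the fumarase of the citric acid cycle, Idh3b, a subunit of isocitrate dehydrogenase, and Vprbp, an adaptor of the ubiquitin ligase that acts on TET proteins. Fh1 was at 2.88, 2.70 and 2.91 in young and 2.47, 2.42 and 2.25 in geriatric samples, a difference of -0.45 (SE 0.16, adjusted p = 0.618 in limma). Idh3b differed by -0.45 and Vprbp by -0.29. The higher gene with the smallest unadjusted p was Sall4, at 0.59 (SE 0.29).

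Genes of demethylation and base excision were split, 7 higher and 7 lower of 14 tested, with a median of 0.066 and none passing. The 7 lower genes were all of base excision repair, where Polb (0.15) and Neil2 (0.21) were higher. The tested Gadd45 and Apobec genes were all higher, a grouping made after the values were seen. Gadd45b, a stress-induced adaptor of DNA demethylation, was at 2.03, 2.43 and 1.30 in young and 3.19, 2.75 and 2.45 in geriatric samples, a difference of 0.88 (SE 0.35). Apobec1, a cytidine deaminase, differed by 0.50 (SE 0.20, adjusted p = 0.671 in limma). These were the 2 of 14 whose geriatric samples all stood above the young ones, against 7.18% of features. Parp1, which acts in DNA repair, differed by -0.68 (SE 0.27, adjusted p = 0.672), and its groups overlapped. The thymine DNA glycosylase Tdg, which excises the oxidised bases that TET enzymes make, differed by -0.015 (SE 0.37).

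Mbd2, which binds methylated CpG and recruits the NuRD repressor, was read by 2 probes on chromosome 18. At base 775 of NM_010773 it was at 4.48, 4.34 and 4.33 in young and 4.34, 4.04 and 4.75 in geriatric samples. The 2 extremes were both geriatric, and the difference was -0.0050 (SE 0.22, 95% interval -0.55 to 0.54). The sign was positive without geriatric sample 3 (0.16). At base 1414 the difference was 0.13 (SE 0.22).

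The partners of Mbd2 also lay close to no difference. Of 11 NuRD subunits, 8 were lower and 3 higher, with a median of -0.083 that changed sign in 2 of 20 alternatives. Rbbp7, a histone-binding subunit, was higher in every geriatric sample (0.25, SE 0.15). That is 1 of 11, near the 7.18% of all features. Chd3, a remodelling ATPase, differed by -0.44 (SE 0.24). Of 9 other readers of methylated CpG, 6 were higher and 3 lower, with a median of 0.028 that changed sign in 1. Mbd5 was lower in every geriatric sample (-1.03, SE 0.51) and well above background on 6 of 7 arrays. It was the 1 of 9 separated in that direction, against 5.65% of features. Zbtb4 differed by 0.22 (SE 0.21). None of the 20 passed.

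The S-adenosylmethionine cycle, which makes the methyl donor, had 13 of 19 genes lower, a median of -0.12 and none passing. Mtrr, which keeps methionine synthase active, differed by -0.79 (SE 0.48). Its groups overlapped. Mat2a, which makes S-adenosylmethionine, differed by 0.11 (SE 0.22), and Ahcy, which clears its product, by 0.20 (SE 0.29).

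A list of germline genes known to be held silent by promoter methylation in body cells was also read. Of 26 on the array, 14, among them Dazl, Ddx4 and Sycp1, failed to reach well above background on even 1 array. Others were not silent on the array: 5 of the 9 tested were well above background on all 7 arrays, among them Taf7l (2.85 in young, 2.91 in geriatric) and Sycp3 (0.43 and -0.11). The 9 tested were 5 lower and 4 higher, with none passing and a median of -0.011 that changed sign in 6 of 20 alternatives. Brdt was lower in every geriatric sample (-0.91, SE 0.44), the 1 of 9 separated in that direction, against 5.65% of features. Tex101 differed by 0.33 (SE 0.19).

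**Figure D4:**
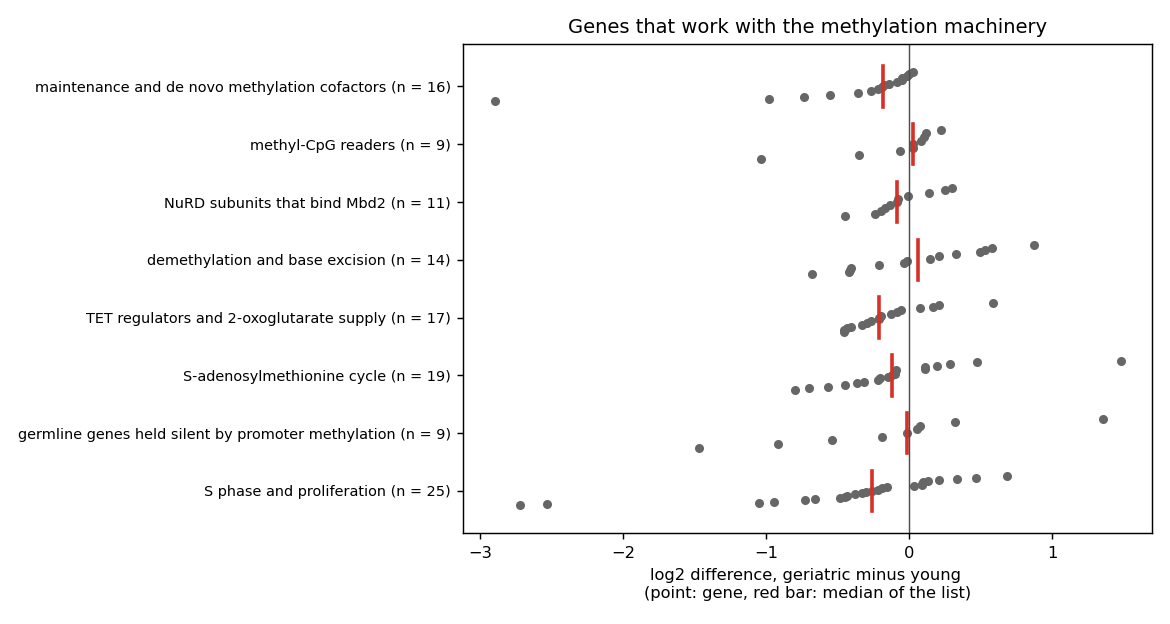
Log2 difference, geriatric minus young, of each tested gene (points) in 8 lists, with the median of each list as a red bar. Besides lists of genes that act with the members, they include S phase genes and germline genes held silent by methylation. Medians run from -0.26 for S phase genes, Mcm10 and Cdc6 included, to 0.066 for demethylation and base excision. No gene in any list passed.

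Markers of fibro-adipogenic progenitors, the stromal cells that the sort against Sca1 should remove, were higher in geriatric samples for 8 of 10 tested genes, with none passing. Their median difference was 0.74. The median marker stood at -0.38, -0.16 and -0.23 in the young samples and at 0.036, 0.91 and 0.32 in the geriatric samples, highest in geriatric sample 3. Their summed signal was 45.2 to 60.8 in young and 57.9 to 66.9 in geriatric samples. Pdgfra, the defining marker, was well above background on 0 of 7 arrays, and Ly6a, which encodes Sca1, was so on 2 of 3 young and 2 of 4 geriatric arrays. By contrast, 8 of the 10 tested were well above background on all 7 arrays. Among them were Col3a1 (4.89 in young, 4.75 in geriatric) and Dcn (2.19 and 3.75). Every geriatric sample stood above the young ones for Dpt (0.75, SE 0.17) and Mfap5 (2.45, SE 0.93). That is 2 of 10, against 7.18% of features, and none was separated the other way. The part of such cells in the differences of the members was not tested.

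The genes whose levels followed each member most closely were ranked by Pearson's r over the 6 samples among 14173 named features. For Uhrf1 they were Lamp3 (r = 0.997) and Surf6 (r = 0.990), and for Dnmt1 they were Nkiras2 and Polr3e (both r = 0.994). For Dnmt3a they were Palmd (r = 0.995) and Chd4 (r = 0.984), a NuRD ATPase, and for Dnmt3b Chrd (r = 0.996) and Atl3 (r = 0.987). For Tet1 the closest was Fam69b (r = 0.994). For Tet2 they were Agphd1 (r = 0.990) and Dnahc17 (r = 0.988), and for Tet3 Timm44 (r = 0.998) and Ebna1bp2 (r = 0.992). For Mbd2 they were Adam11 and Upk3a (both r = 0.979). With 6 samples and that many features, high values of r arise for any gene, and they are given only as descriptions.

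**Figure D5:**
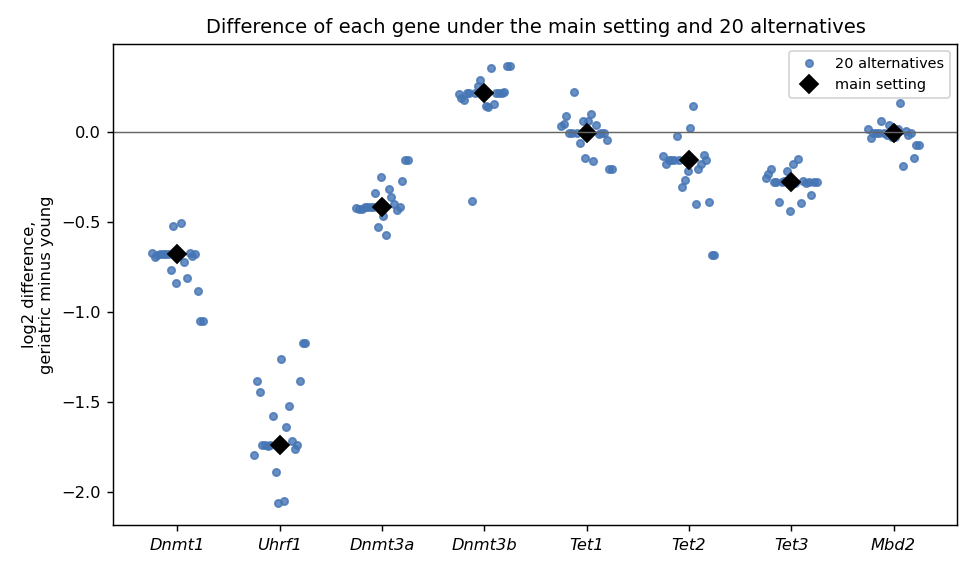
Log2 difference, geriatric minus young, of each of the 8 genes under the main processing and 20 alternatives. Uhrf1 ranges from -2.06 to -1.17 and Dnmt1 from -1.05 to -0.51, while the points of Dnmt3b, Tet1, Tet2 and Mbd2 lie on both sides of 0.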

How the data were processed

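The members and gene lists were chosen with earlier results of these data known. The deposited Agilent files hold 1-colour spot intensity, background-subtracted by Feature Extraction 10.7.3.1 on a mm9 design, per the file headers. The authors also deposited a table of log2 values, used as an alternative; the array medians are all 8.02, and its background correction stays unknown. Processed signals were taken to log2 and scaled to each array's 75th percentile. Control and outlier spots were left out, and spots of a probe averaged. Probes well above background on at least 3 of 7 arrays were tested with limma 3.58.1 in R 4.3.3, without covariates, with Benjamini-Hochberg adjustment over 27395 names, each by its brightest probe. The test was checked on simulated data. Array number limits the precision. Named were all members, the higher and lower gene of each list with the smallest unadjusted p, and the 2 genes closest to each member, with some items not reported here. Genes without overlap were chosen after their values were seen. So were Hells, Uhrf2, Pcna, Tdg, Polb, Neil2, Mat2a, Ahcy, Pdgfra, Ly6a, Dazl, Ddx4, Sycp1, Sycp3, Taf7l, Itgam, Csf1r, Pax7, Col3a1 and Dcn. Probe pairs of a gene were compared by exact permutation. Probe coordinates and gene names are the files' own; exon and UTR annotation was not used here.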

Additional observations from a re-analysis of the deposited data

How the results depend on the processing

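No member and no gene of a partner list passed under any of the 20 alternatives, and the 2 members without overlap stayed 2 with quantile normalization, normexp background correction and the authors' values. Uhrf1 kept its direction throughout (adjusted p 0.291 to 0.813 in limma, unadjusted p under 0.05 in 17 of 20), as did Dnmt1 (0.312 to 0.904, 15 of 20), Dnmt3a and Tet3. Dnmt3b turned to -0.38 with the mean of its probes. Mbd2 turned to 0.020 with quantile normalization and 0.061 with the mean of its probes, and ran from -0.19 to 0.16 with a replicate left out (0.015 without geriatric replicates 1 and 2). Tet1 turned to 0.033 with quantile normalization, 0.046 with normexp, 0.088 with the authors' values and 0.22 with the mean of its probes, and ran from -0.16 to 0.061 with a replicate left out (0.098 without geriatric replicates 1 and 2). Tet2 ran from -0.40 to 0.023 with a single replicate left out, the latter without young replicate 3, and was 0.15 without geriatric replicates 1 and 2, with a range of -0.68 to 0.15 over all 20 alternatives. The cause of these turns was not tested. Over all features 7 passed; 4 did with normexp, 4 with the authors' values, 2 with probes well above background on all arrays, 64 with the 4 geriatric arrays counted as 4 samples, 0 to 8 with a replicate left out, 0 with slide row as a block and 3 within row 1. With the replicate number as a replicate block 0 passed, by the numbers of the descriptions or of the titles. In deviations from the group mean, samples with the same number in the descriptions correlated at -0.043, 0.030 and 0.045. Young sample 3 and geriatric sample 3, which share a number in the titles, correlated at -0.0044. The numbers were therefore not used to pair samples. The medians of the germline, NuRD and methyl-CpG reader lists changed sign in 6, 2 and 1 alternatives. Among the genes named, Mcm10, Cdc6, Hells and Cdca7l were near background.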

Other observations

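The other cell types on the marker lists gave mixed differences. Of the markers tested, 5 of 9 were higher in geriatric samples for endothelial cells, 5 of 8 for macrophages and monocytes, 3 of 6 for lymphocytes, 4 of 7 for pericytes and smooth muscle, and 3 of 6 for Schwann cells. The counts were 1 of 2 for tenocytes, 5 of 7 for mature myofibres and 2 of 2 for erythroid cells, and none passed in limma. Groups did not overlap, with geriatric higher, for 2 of 6 lymphocyte markers, Cd79a (1.27, SE 0.23) and Cd4 (0.19, SE 0.15). The same held for 1 of 7 pericyte and smooth muscle markers and 1 of 2 tenocyte markers, against 7.18% of features. No marker of these cell types was separated the other way. Of the defining markers, Cd3d and Ms4a1 of lymphocytes and Lyz2, C1qa and C1qc of macrophages were on no array well above background. By contrast, 6 of 8 tested for macrophages and 5 of 6 for lymphocytes were well above background on all 7 arrays, among them Itgam, which encodes the sort antigen CD11b (6.54 in young, 6.61 in geriatric), and Csf1r (2.11 in both). The satellite cell list had 7 of 12 higher, with a median difference of 0.063.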
